A study of Mus musculus with 20 samples.

Results

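Cish, Socs1, Socs2, Socs3 and Pim1 are genes that T cells switch on in response to cytokines, and binding of the transcription factors Bcl11b and Foxp3 was mapped around them. The regions counted were the distinct regions of 12 deposited region lists whose centre was nearer to 1 of these 5 genes than to any other protein-coding gene. The distance was 0 inside a gene, and the limit was 100 kb. The rule found 22 of 22081 distinct regions, of which 6 were at Socs1, 6 at Socs3, 5 at Pim1, 3 at Cish and 2 at Socs2.

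Cytokine receptors that use Janus kinases (JAK) phosphorylate STAT transcription factors, and in regulatory T (Treg) cells IL-2 acts mainly through STAT5. The CIS and SOCS proteins made from Cish and the Socs genes are induced by STATs and damp the receptor, the kinase or the STAT docking sites, which closes a negative feedback loop. Pim1 encodes a serine/threonine kinase that is induced by the same pathway and favours survival and growth. It is a target of the pathway but not a SOCS protein. Foxp3 is the forkhead factor that specifies Treg cells, and Bcl11b, with its zinc fingers, is needed for T cell identity.

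Chromatin immunoprecipitation with sequencing (ChIP-seq) was done on CD4+ T cells sorted from spleen and draining lymph nodes of C57BL/6 mice. Foxp3 was precipitated from Bcl11b-KO Treg cells (sorted CD4+YFP+, Bcl11b f/f Foxp3-IRES-YFP-Cre, 2 libraries), in which the Cre recombinase is expressed from the Foxp3 gene, and from wild-type (WT) Treg cells (CD4+YFP+, Foxp3-IRES-YFP-Cre, 2 libraries). Bcl11b was precipitated from KIKO cells (CD4+GFP+, Foxp3-GFPKO, 2 libraries), which the labels describe as Treg cells devoid of Foxp3, from the same WT Treg cells (3 libraries) and from cells labelled Tn (3 libraries). The Tn label is not expanded, and the Tn cells carry the genotype and sort markers of the WT Treg cells. All groups but KIKO carry the Foxp3-IRES-YFP-Cre allele. A further 8 libraries were input DNA. The lists hold positions and no expression values, so the cell labels were not set against marker genes here.

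Each of 4 comparisons of 2 region sets places a region in 1 of 3 classes: common to both sets, or particular to one of them. The lists hold no score, read count or value per library, so the depth behind a class is unknown and no test between libraries could be made. Shares are given with 95% intervals by Wilson's method, which reflect counting error alone, and neighbouring regions of a gene are not independent observations. Regions are numbered by coordinate within each gene, positions are mm10, and "not listed" means that none of the 3 lists of a comparison held the region.

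Sequences were available for the promoter windows of 4 of the 5 genes, from 250 bases before to 50 bases after each start in RefSeq (GRCm38.p6, the assembly with mm10 coordinates). Socs2 has no entry in that table. The windows were searched on both strands for TTCNNNGAA, the palindrome that STAT5 can bind, for TGTTTAC, a forkhead word, and for the Runx word ACCACA, the AP-1 word TGANTCA and the Ets word GGAAG. The Cish stretch is shown because it holds the STAT5 palindrome 2 times, the Pim1 stretch because it lies inside a region of both factors and holds the forkhead word, and the Socs1 stretch because a Foxp3 region covers its start. Capitals mark the words TTCNNNGAA in Cish and TGTTTAC, read from the other strand as GTAAACA, in Pim1. Neither word occurs in the Socs1 stretch.
Cish, chr9:107296559-107296688, plus strand: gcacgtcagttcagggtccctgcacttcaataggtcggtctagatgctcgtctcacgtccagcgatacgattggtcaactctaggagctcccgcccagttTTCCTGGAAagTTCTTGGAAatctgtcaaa
Pim1, chr17:29492835-29493054, plus strand: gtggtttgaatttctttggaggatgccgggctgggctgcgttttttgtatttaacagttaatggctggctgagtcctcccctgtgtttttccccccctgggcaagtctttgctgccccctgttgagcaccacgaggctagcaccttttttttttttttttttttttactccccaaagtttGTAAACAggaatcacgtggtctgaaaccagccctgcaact
Socs1, chr16:10785507-10785611, minus strand: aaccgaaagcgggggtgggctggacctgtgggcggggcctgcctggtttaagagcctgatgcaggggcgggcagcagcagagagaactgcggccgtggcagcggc

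The 2 palindromes of Cish read TTCCTGGAA and TTCTTGGAA and lie at bases 1 to 9 and 12 to 20 after the RefSeq start at 107296659. Of 32817 promoter windows, 8.29% held TTCNNNGAA at least once and 0.457% held it 2 or more times. The Cish words stood outside the listed regions, the nearer being 421 bases from the edge of Cish region 1. Socs3 held 1 palindrome, TTCTTAGAA, 200 bases from the nearest region, and the windows of Socs1 and Pim1 held none. The forkhead word of Pim1, at 29493015 to 29493021 of chromosome 17, was inside Pim1 region 2, and 3.65% of windows held it. Runx and AP-1 words (16.8% and 7.81% of windows) did not occur in the 5 windows of the 4 genes, and the Ets word (71.4% of windows) occurred in those of Cish, Socs1 and Socs3. A match describes the letters only, and the absence of one says nothing of the factor.

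Both factors were listed at 4 of the 5 genes. WT Foxp3 was listed at 18 of the 22 regions (81.8%) in at least 1 comparison, against 73.5% of all 22081 regions, and Treg Bcl11b at 10 (45.5%, interval 26.9 to 65.3), against 38.9%. Counting only regions that every comparison able to list Treg Bcl11b did list, the order turned, with 3 of 22 (13.6%, 4.75 to 33.3), against 23.5% of all. The same count for WT Foxp3 gave 15 of 22 (68.2%), against 60.6% of all. Bcl11b-KO Foxp3 was listed at 19 of 22 (86.4%, 66.7 to 95.3), against 58.2% of all regions. That series value lies below the interval, which takes regions of a gene as independent though they are not. At Socs3 it was listed at 3 of 6 regions, and at the other genes at every region. For Bcl11b in the other cells, 2 regions were listed for Tn (9.09%, 2.53 to 27.8, against 23.6% of all) and 1 for KIKO (4.55%, 0.807 to 21.8, against 9.94%), and both intervals hold the series value. Socs2 had no region listed for Bcl11b in any cell.

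**Figure D1:**
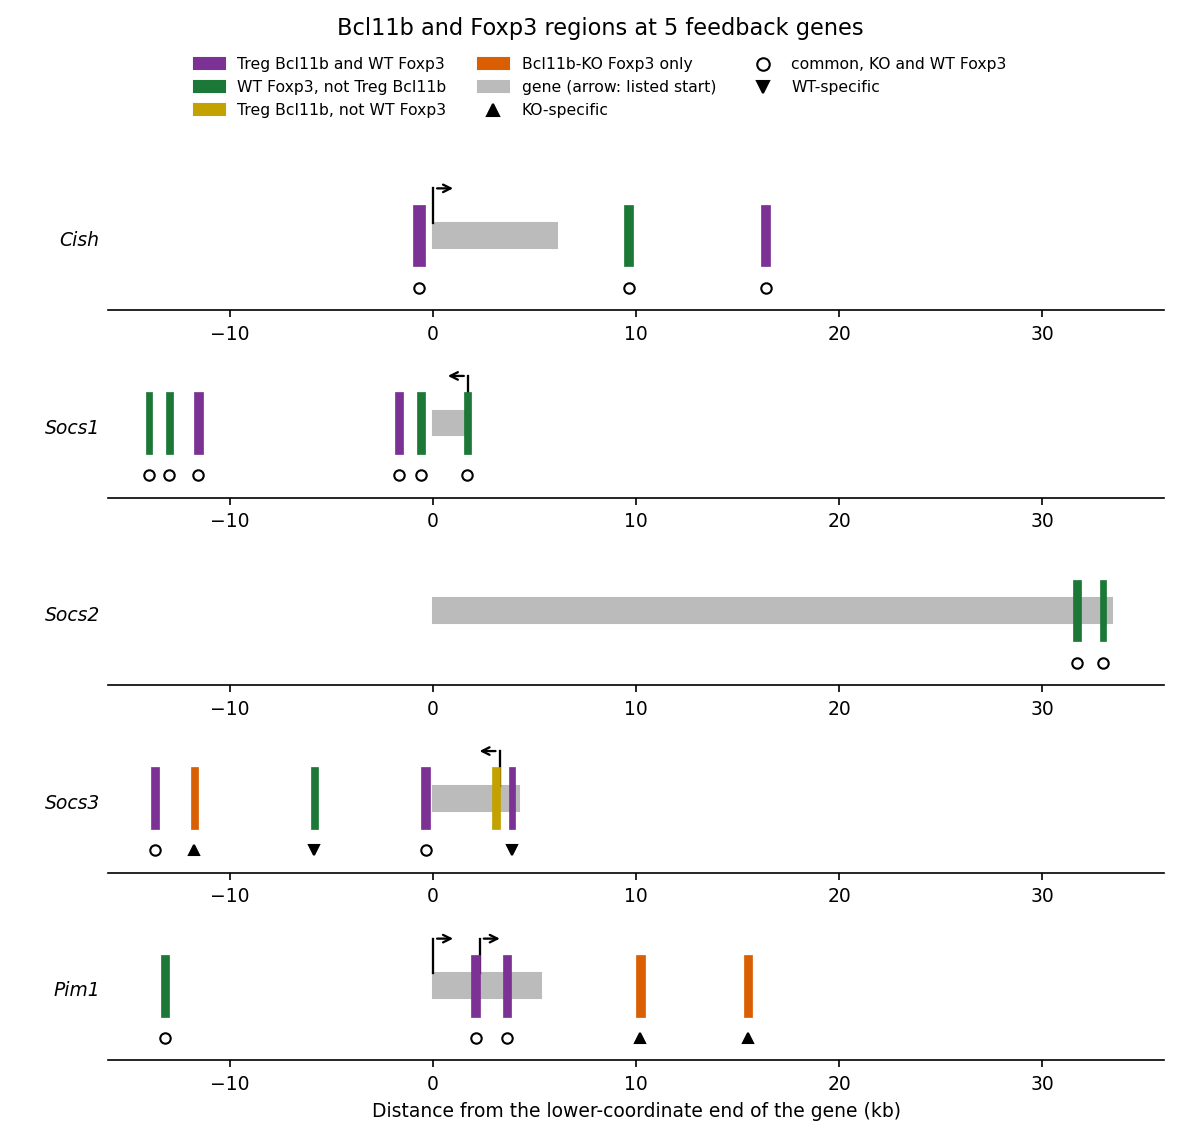
Regions at each gene, drawn to scale by distance in kb from the lower-coordinate end of the gene; colour shows the WT Treg factors listed in any comparison, and the mark under a region its class for Foxp3 in Bcl11b-KO against WT Treg cells (none: not listed there). All 6 Socs1 regions are common, and the 3 KO-specific regions lie at Socs3 and Pim1.

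Cish, the classical STAT5-induced member, encodes CIS, which competes for receptor docking sites. It had a region close to its start and 2 regions beyond its other end. Cish region 1, at chr9:107295742-107296238, was centred 0.67 kb upstream and, at 497 bp, was the widest of the 22. Cish region 3, at chr9:107312852-107313221, was centred 10.25 kb downstream of the gene. Both had the same classes throughout: Treg-specific against Tn, WT-specific against KIKO, shared by Bcl11b and Foxp3, and common to Bcl11b-KO and WT Foxp3. That combination of 4 classes was held by 113 of all 22081 regions (0.512%). Cish region 2, at chr9:107306135-107306486, was Foxp3-only and common to Bcl11b-KO and WT Foxp3. Bcl11b was thus listed for WT Treg cells at 2 of the 3 regions, Cish regions 1 and 3. It was listed at none of the 3 for Tn or KIKO cells. Foxp3 was listed at all 3 for both Bcl11b-KO and WT cells. The lack of Tn listings rests on the assignment to the nearest gene, since regions common to Treg and Tn lay in the next gene. For KIKO, only the farther of those regions was common to KIKO and WT Treg.

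Wide regions were seldom Treg-specific in the series. Of 2535 Treg-side regions wider than 276 bp, the largest of the modal widths of the 5 sets, 92.5% were common with Tn, compared with 53.9% of the 3983 narrower ones. All 4 regions of the feedback genes on the Treg side were wider than that, and 2 of them, the Cish pair, were Treg-specific. Cish region 1 is repeated in 2 rows of the lists and was counted as 1 region. Beyond the Cish regions, in the neighbouring kinase gene Mapkapk3, lay the regions chr9:107289696-107290048 and chr9:107280699-107281128, centred 6.79 and 15.75 kb from Cish. Both were common to Treg and Tn. Against KIKO the first was WT-specific, and the second was common to KIKO and WT Treg.

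Socs1 encodes an inhibitor of the JAK kinases themselves, with a strong action on interferon gamma and common gamma-chain cytokines. Its 6 regions were all common to Bcl11b-KO and WT Foxp3, and none was listed against Tn or KIKO. Socs1 region 6, at chr16:10785382-10785611, covered the start at 10785536 and shared 125 bases with the promoter window, and it was Foxp3-only. Downstream of the gene stood Socs1 region 5 (chr16:10783097-10783372, 0.57 kb away) and Socs1 region 4 (chr16:10781976-10782264, 1.69 kb away), of which region 4 was shared by Bcl11b and Foxp3. A second group followed after a gap of 9.55 kb. It held region 3 (chr16:10772105-10772420), shared by both factors, and regions 2 (chr16:10770720-10770939) and 1 (chr16:10769724-10769943), both Foxp3-only, which were separated by gaps of 1165 and 776 bp. Region 1, with its centre 13.97 kb from Socs1, was the farthest of the 22 from its gene.

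Socs2, known in mice above all as a brake on growth hormone signalling through STAT5, had 2 regions inside its annotated span of 33419 bp, near the higher-coordinate end. Socs2 region 2, at chr10:95416794-95417013, was Foxp3-only, and Socs2 region 1, at chr10:95415470-95415745, was not listed in the comparison of the 2 factors. Both were common to Bcl11b-KO and WT Foxp3. They were 1048 bp apart, and the next gene, Mrpl42, was 63.9 kb from region 2.

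Socs3 encodes the inhibitor that binds gp130 and restrains STAT3 signalling after IL-6. Its 6 regions were the most varied of the set and fell into 6 different combinations of classes. Region 4, at chr11:117965563-117965881 and 0.36 kb downstream of the gene, was common to Treg and Tn, WT-specific against KIKO, shared by both factors and common to Bcl11b-KO and WT Foxp3. Region 6, at chr11:117969861-117970080 inside the annotated span, was shared by both factors and WT-specific for Foxp3, so it was not listed in Bcl11b-KO cells. Region 3, at chr11:117960137-117960356, was Foxp3-only and also WT-specific. These were the only 2 WT-specific Foxp3 regions among the 22.

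Socs3 region 2, at chr11:117954191-117954466, was KO-specific and lay 11.75 kb downstream of the gene. It was 1652 bp from region 1 (chr11:117952255-117952538), which was shared by both factors and common to Bcl11b-KO and WT Foxp3. Region 5, at chr11:117969054-117969312, ended 4 bases from the Socs3 promoter window. It was the only one of the 22 listed for KIKO Bcl11b, as common to KIKO and WT Treg, and no other comparison listed it. The lists therefore conflict on Treg Bcl11b there, since a region on the WT side against KIKO would also stand in the Tn and Foxp3 comparisons if all 3 drew on the same Treg set. In all, 166 regions (0.752%) had this combination.

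Pim1 had 5 regions, with both factors inside the gene and KO-specific Foxp3 regions beyond it. Pim1 region 2, at chr17:29492718-29493054, was centred 0.20 kb before the second RefSeq start at 29493085 and shared 220 bases with the promoter window there. It was common to Treg and Tn, shared by both factors, common to Bcl11b-KO and WT Foxp3, and not listed against KIKO. Region 3, at chr17:29494293-29494574, was shared by both factors and common to Bcl11b-KO and WT Foxp3. Region 1, at chr17:29477456-29477731 and 13.19 kb upstream, was common to the same pair and not listed elsewhere. Regions 4 (chr17:29500830-29501161) and 5 (chr17:29506168-29506443), 4.88 and 10.19 kb downstream, were KO-specific. The next region along, at chr17:29510725-29511000, was KO-specific too. It was nearer to Tmem217 (8.28 kb) than to Pim1 (14.75 kb) and so did not count.

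**Figure D2:**
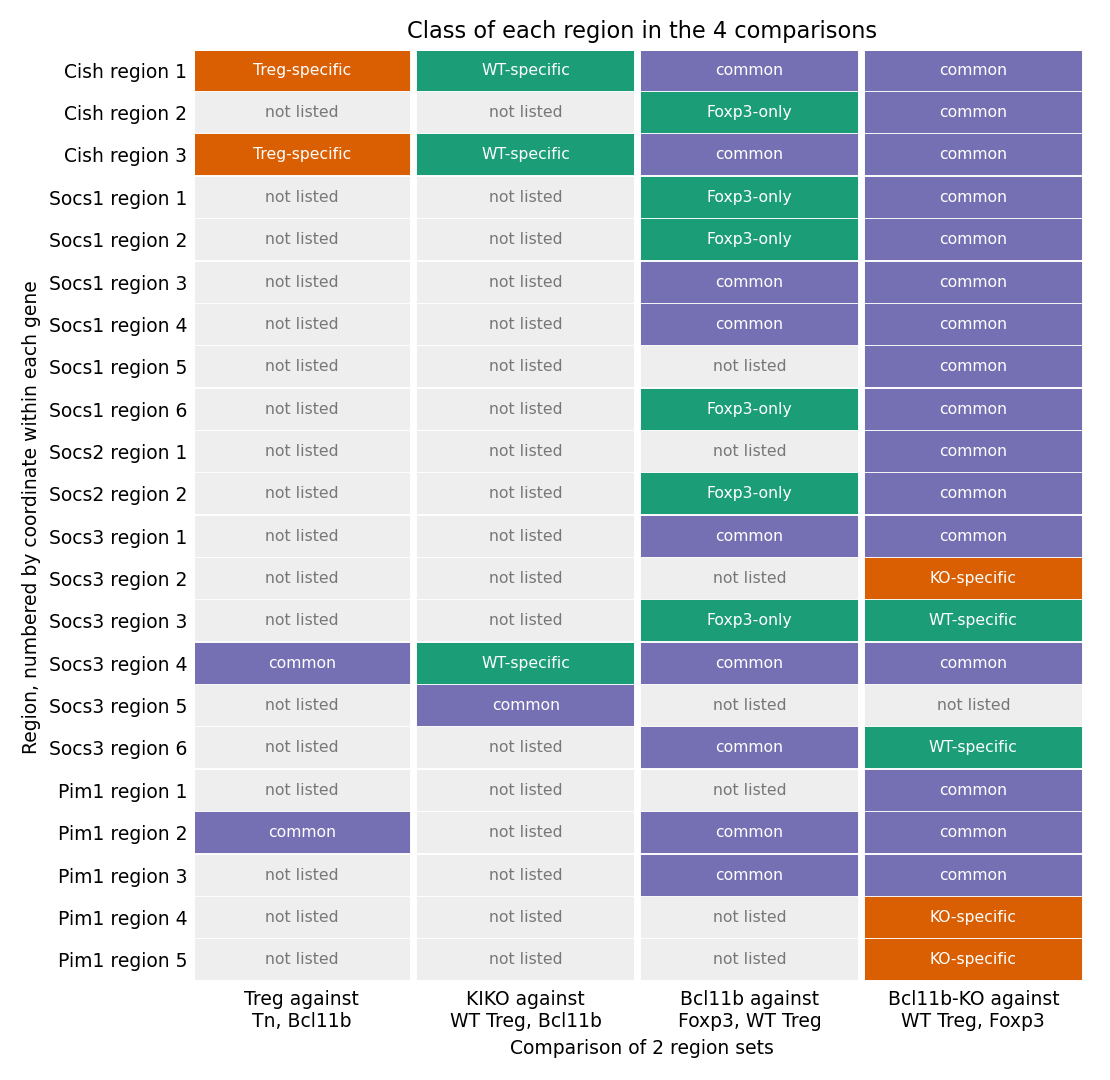
Class of each of the 22 regions (rows, numbered by coordinate within the gene) in the 4 comparisons (columns); grey cells were not listed. Only Cish regions 1 and 3 are Treg-specific, and the column of Bcl11b-KO against WT Foxp3 is mostly common.

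Bcl11b in WT Treg cells was set against Bcl11b in the cells labelled Tn, a label that is not expanded. Of 4 listed regions, 2 were Treg-specific (interval 15.0 to 85.0%), against 28.0% of all 7243 listed regions. The other 2, Socs3 region 4 and Pim1 region 2, were common, against 62.0% of all. No region was Tn-specific, a class that held 10.01% of all listed regions. With gene bodies and 10 kb on each side in place of the nearest gene, Cish region 3 left the count and the Mapkapk3 region 6.79 kb from Cish entered it, so that 1 of 4 was Treg-specific (25.0%) and 3 were common (75.0%). With 4 regions, each share was too imprecise to be set apart from the series.

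KIKO cells were compared with WT Treg cells to ask which Bcl11b sites are kept without Foxp3. None of 4 listed regions was KIKO-specific, against 1.17% of all 5713 listed regions, and 1 was common, against 37.2%. The remaining 3, Cish regions 1 and 3 and Socs3 region 4, were WT-specific (75.0%, 30.1 to 95.4), against 61.6% of all. The WT-specific share of the 5 genes was thus near that of a comparison in which most Bcl11b regions were WT-specific.

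Within WT Treg cells, Bcl11b and Foxp3 were compared to see whether they occupy the same sites. None of 15 listed regions was Bcl11b-only (0 to 20.4%), against 14.9% of all 16747 listed regions. Shared regions numbered 9 (60.0%, 35.7 to 80.2), against 28.3%, and Foxp3-only regions 6 (interval 19.8 to 64.3%), against 56.8%. Every Bcl11b region listed here was thus shared, 9 of 9 (100%, 70.1 to 100), against 65.5% of the 7235 Bcl11b regions of the series. The share varied with width. Of Bcl11b regions wider than 276 bp in the whole series, 96.5% were shared, against 45.1% of narrower ones, and 8 of the 9 were wide. Socs3 region 6 was the narrower one.

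Other comparisons did not always repeat the Bcl11b listing. Of the 9 shared regions, 4 (44.4%) were on the Treg side against Tn and 3 (33.3%) on the WT side against KIKO, compared with 61.3% and 58.0% of the 4738 shared regions of the series. For 5 regions (55.6%, against 37.5% of all shared regions) the comparison with Foxp3 is the only one that lists Treg Bcl11b. They were Socs1 regions 3 and 4, Socs3 regions 1 and 6, and Pim1 region 3. All Bcl11b listings at Socs1 are of this kind, whereas both at Cish were repeated in every comparison.

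Bcl11b-KO Treg cells were compared with WT Treg cells to ask what becomes of Foxp3 sites when Bcl11b is deleted. Of 21 listed regions, 3 were KO-specific (14.3%, 4.98 to 34.6), against 13.1% of all 17673 listed regions. Common regions numbered 16 (76.2%, 54.9 to 89.4), against 59.7%, and WT-specific regions 2 (9.52%, 2.65 to 28.9), against 27.2%. Of the 18 regions on the WT side, 16 were common (88.9%, 67.2 to 96.9), against 68.7% of 15365 in the series, and the series value lies inside the interval. The share varied with width here too. Of the regions wider than 276 bp, 9 of 9 were common, against 81.4% of 5784 in the series. Of the narrower ones 7 of 9 were common, against 61.0% of 9581. Of the 9 regions that Bcl11b and Foxp3 shared in WT Treg cells, 8 were common to Bcl11b-KO and WT Foxp3 (88.9%, 56.5 to 98.0), the exception being Socs3 region 6. In the series 2841 of 4738 shared regions were, which is 59.96% of all of them and 69.4% of the 4094 that this comparison lists on the WT side. Socs3 region 6 was exactly 220 bp wide, the modal width of the WT Foxp3 set, and no comparison but that with Foxp3 lists Treg Bcl11b there. Whether it holds a peak of both factors was not tested.

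Among the 16 common regions, Socs1 region 5, Socs2 region 1 and Pim1 region 1 were absent from the WT Foxp3 side when Foxp3 was compared with Bcl11b. Each was exactly 276 bp wide, the modal width of the Bcl11b-KO Foxp3 set. In the series 17.1% of the 10550 common regions were of that kind, against 18.8% here. For these 3 regions, whether common means a peak in both cell types was not tested. Without them, 13 of 15 regions on the WT side were common (86.7%, 62.1 to 96.3), against 64.5% of 13564 in the series without regions of that kind.

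**Figure D3:**
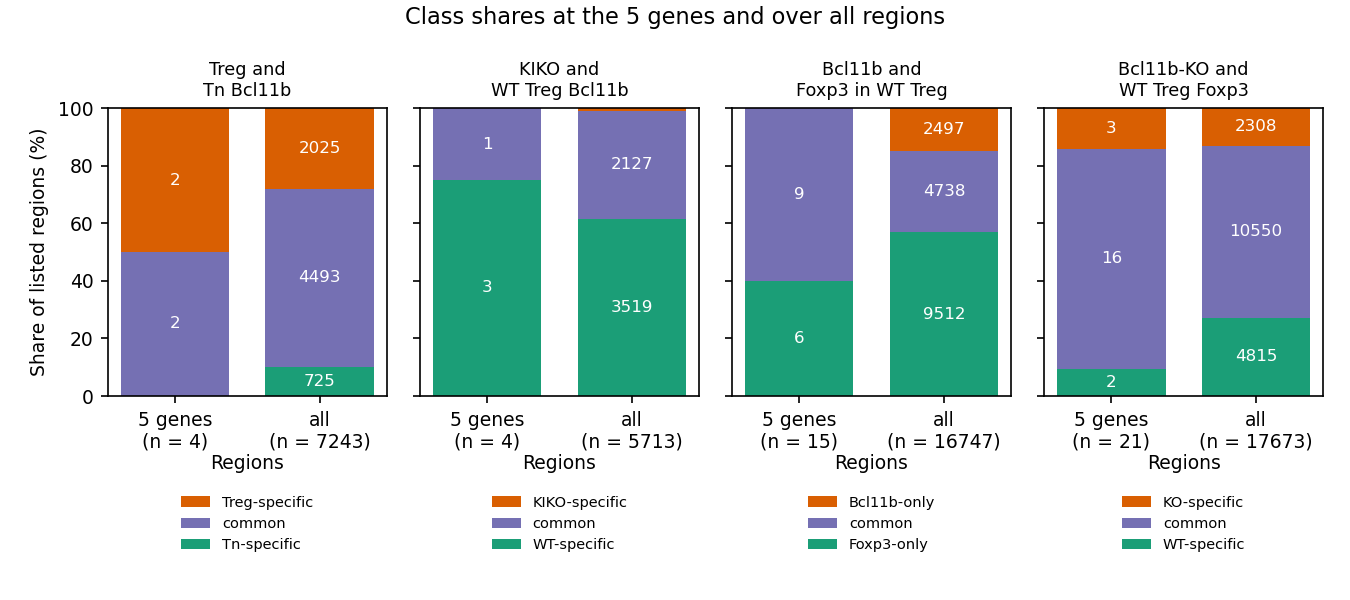
Share of listed regions in each class (y axis, percent; numbers in the bars are region counts) for the 5 genes (left bar) and for all regions (right bar) in each comparison. At the 5 genes none of 15 regions is Bcl11b-only and 16 of 21 are common to Bcl11b-KO and WT Foxp3.

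Regions were dense around most of the 5 genes. Socs1 and Socs3, with 6 each, were among the 3.74% of the 11011 genes with a region that had at least as many. Pim1, with 5, was among the top 6.58% by the same count, Cish, with 3, among 23.6% and Socs2, with 2, among 47.4%. The median gene with a region had 1. Density was scaled to the sequence nearest each gene within 100 kb. It was 26.8 regions per 100 kb at Socs1, 13.8 at Cish, 10.3 at Socs3, 6.90 at Pim1 and 2.103 at Socs2. Over all genes, those without a region included, it was 1.14. The sequence so counted was 22.4 kb at Socs1, 21.7 at Cish, 58.5 at Socs3, 72.5 at Pim1 and 95.1 at Socs2. The 2 highest densities thus rest on the 2 shortest stretches. Centres of 7 of the 22 (31.8%) lay inside the gene, against 61.0% of all assigned regions, and all 5 genes but Socs2 are short, between 1729 and 6126 bp. At genes with a promoter window, 2 of 20 regions touched it, against 28.9% over all genes.

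**Figure D4:**
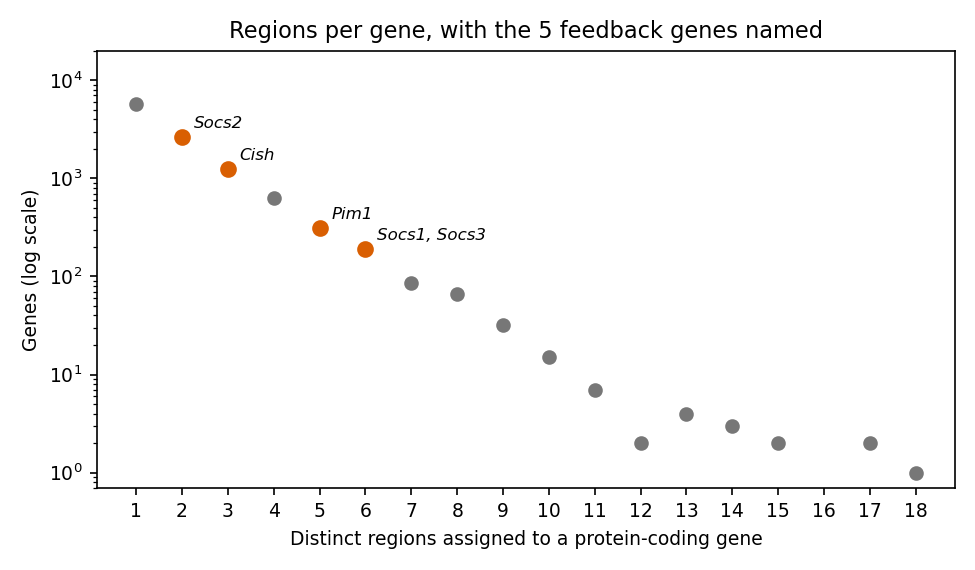
Number of protein-coding genes (y axis, log scale) by the number of distinct regions assigned to them (x axis); orange points mark the counts at which the named genes stand. Socs1 and Socs3 stand at 6 regions, Pim1 at 5, Cish at 3 and Socs2 at 2, and the median gene at 1.

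All 6 other members of the 2 families had a region, 10 in total, of which 5 were at Socs5. Of the Socs5 regions, 3 were shared by both factors, 1 was Foxp3-only and 4 were common to Bcl11b-KO and WT Foxp3. Its 3 regions on the WT side against KIKO were all WT-specific. The single region of Socs4 was common to Treg and Tn, common to KIKO and WT Treg, and Bcl11b-only in the comparison with Foxp3. Socs6, Socs7, Pim2 and Pim3 had 1 Foxp3-only region each. That of Pim2 was common to Bcl11b-KO and WT Foxp3, and the other 3 were WT-specific.

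Upstream of the feedback loop, all 17 cytokine receptor, JAK and STAT genes of a list drawn up with earlier results of these data known had a region, 79 in total. In the comparison of Bcl11b-KO and WT Foxp3, 11 were KO-specific, 45 common and 17 WT-specific. Stat5b, the gene of a STAT5 protein, had 14 regions, Il2ra, the IL-2 receptor alpha chain gene, 8, Stat4, which transmits IL-12 signals, 7, and Il21r, the IL-21 receptor gene, 6, the same number as Il2rb, Il4ra and Jak2. For Foxp3, Stat5b had 2 KO-specific, 5 common and 5 WT-specific regions, Il2ra had 7 common and 1 WT-specific, Stat4 had 6 common and 1 WT-specific, and Il21r had 1 KO-specific, 2 common and 3 WT-specific. Il2rb, the gene of the IL-2 receptor beta chain, had 4 KO-specific and 2 common regions, Il4ra had 1 KO-specific and 4 common, and Jak2 had 4 common and 1 WT-specific. Il2rb, Il4ra and Jak2 were added for their tie with Il21r after their values were seen.

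STAT5 targets other than the 5 genes had 51 regions at 12 of 12 genes, of which 4 were KO-specific, 27 common and 13 WT-specific for Foxp3. Bcl2, a survival gene, had 9 regions, the cell cycle gene Ccnd3 and the repressor gene Gfi1 6 each, and Mcl1, another survival gene, 5. All 6 Ccnd3 regions were common for Foxp3, as at Socs1. Bcl2 had 2 Bcl11b-only regions and no shared one. Other negative regulators had 43 regions at 11 of 13 genes, with 4 KO-specific, 24 common and 10 WT-specific for Foxp3. Dusp5, a phosphatase gene of the ERK pathway, had 11 regions, 3 of them KO-specific, the phosphatase gene Ptpn1 6, the adaptor gene Sh2b3 5 and the phosphatase gene Dusp6 4. Over these 48 genes, 101 regions were common and 43 WT-specific for Foxp3, and 10 were Bcl11b-only against 65 shared. At the 5 genes 16 were common and 2 WT-specific for Foxp3, and 0 were Bcl11b-only against 9 shared. Over all regions of the series, 10550 were common and 4815 WT-specific for Foxp3, so that 68.7% of the WT side was common. In the series 2497 were Bcl11b-only against 4738 shared, so that 65.5% of the Bcl11b regions were shared. No test was made between the groups of genes.

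Likeness to other genes was measured as the sum of absolute differences between the counts of regions in the 12 lists. Closest to Cish was Sumo3, at a distance of 2, followed by Adgre5 and Adora2a at 3. Anxa6 and Gypc were at 2 from Socs1, Asb2 and Map3k1 at 2 from Socs3, and Focad, Ppil4 and Stoml1 at 2 from Pim1. Agfg1 and Arhgef10 came next, at 3 from Socs1 and from Socs3. The pattern of Socs2 was held exactly by 119 other genes, the first by name being Acsl1, Alms1 and Angptl4.

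Just outside the rule stood 9 regions for which 1 of the 5 genes was the second nearest. Besides the Tmem217 region and the pair of Mapkapk3 regions already described, they included a KO-specific region in Mapkapk3, 23.15 kb from Cish. Pgs1, next to Socs3, held 1 region that was Foxp3-only and common to Bcl11b-KO and WT Foxp3 and 2 that were KO-specific, between 16.50 and 21.63 kb from Socs3. Cradd held 2 regions that were Foxp3-only and common, 60.13 and 70.14 kb from Socs2.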

How the data were processed

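ChIP-seq of Bcl11b and Foxp3 and input DNA were deposited for 20 samples in 9 groups. Reads were handled with HISAT2 2.1.0, HOMER 4.10.1, SAMtools 1.3, deepTools, Trim Galore 0.4.2, FastQC and cutadapt 1.12 on build mm10, per the submitters' processing notes, which name no roles or settings. Peak thresholds, the making of the classes and any pooling of replicates are not stated there. The label of the third WT Treg Bcl11b library names no list, and that of the second WT Treg Foxp3 library omits 1, so their part in the lists is unknown. The authors deposited 12 lists of chromosome, start and end, with 47553 rows. The 127 repeats were dropped, and 25 regions in 2 classes of 1 comparison, none at the 5 genes, were left out of that comparison.

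Regions were assigned to 21900 protein-coding genes of a RefSeq table (GRCm38.p6), which placed 21850. RefSeq promoter windows matched 4 of 5 genes. Shares have Wilson intervals. No test was run, since the lists hold no value per library and the members and gene lists were chosen with earlier results of these data known. From the gene list are named the other family members and the 4 genes with most regions in each group, and for likeness up to 3 genes per member (ties by symbol, predicted genes passed over). Alternatives changed the assignment, the width and the listing. Assignment was checked against a plain search. Python 3.11.15, numpy 2.4.6, scipy 1.17.1 and matplotlib 3.10.9 were used.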

Additional observations from a re-analysis of the deposited data

How the results depend on the processing

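Over 9 results and 9 alternatives, 73 of 80 recomputed values stayed within 1.5 times the count or within the interval of the share, and 7 moved. With only regions wider than 276 bp, 10 regions were left at the 5 genes, with 9 listed in the comparison of the 2 factors and 10 in that of Bcl11b-KO and WT Foxp3. The share common to KIKO and WT Treg was then 0% (of 3 regions), and that common to Bcl11b-KO and WT Foxp3 100% (9 of 9). The counts fell because fewer regions were kept. The shares moved because the narrower regions left out held Socs3 region 5, the only one common to KIKO and WT Treg, and the 2 WT-specific Foxp3 regions. Of such wide regions in the series, 53.1% were common to KIKO and WT Treg and 81.4% to Bcl11b-KO and WT Foxp3. An alternative chosen after seeing the data kept regions that at least 2 comparisons listed for 1 WT set. That set was WT Foxp3 in the comparison of Bcl11b-KO and WT Foxp3, and Treg Bcl11b in the others. In the comparison of the 2 factors 4 regions were then left. The rule itself removed the Foxp3-only regions there, and the shared regions that no other comparison lists for Treg Bcl11b. Of 3 regions left against KIKO, 0% were common to KIKO and WT Treg. In the comparison of the 2 factors no region was Bcl11b-only under any of the 9 alternatives. Those that only kept or removed some of the 22 regions could not give one, since every Bcl11b region listed there was already shared. The nearest edge, gene starts and gene bodies with 10 kb on each side could bring in other regions, and none so brought in was Bcl11b-only. Socs3 region 5, listed for Treg Bcl11b only against KIKO and nowhere for Foxp3, is not part of that comparison. A limit of 20 kb, the nearest edge, both classes kept and centres within 100 bp gave 22 regions, genes of any type 21, gene starts 23 and gene bodies with 10 kb on each side 15. The last of these left 1 of 4 regions Treg-specific against Tn, in place of 2 of 4. No paired analysis was possible because the lists are per group and no result comes from a test. Depth per library is unknown, so a region that is not listed may be one that was not detected.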
